A study of Mus musculus with 20 samples.

Results

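The 9 genes described here make up the epithelial sodium channel (ENaC) and the aldosterone pathway that acts on it, and all 9 were found among the 26619 genes of the count table by matching their Ensembl identifiers to symbols in GENCODE. They were chosen by name, with earlier results of these data known, and all 9 passed the filter on low counts, which left 17893 genes. Shares over all genes beside counts of these genes are therefore a description and not a test. RNA came from a segment of distal colon (DC) next to the anus of 20 male C57BL/6 mice bred in-house, with a separate library for each mouse. After weaning, every mouse ate the Total Western Diet (TWD), a diet modelled on typical American nutrient intake, for 6 weeks. Each mouse then ate the TWD with 0, 2, 5 or 10% (w/w) resistant potato starch (RPS), a raw potato starch that reaches the large bowel undigested, for 3 weeks, with n = 5 mice per diet. The 0% group continued on the TWD alone. Levels are given as CPM, counts per megacount of the scaled library, and each mouse goes by its title code.

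ENaC is a sodium channel in the apical membrane of epithelial cells, built from the subunits alpha, beta and gamma, which are encoded by Scnn1a, Scnn1b and Scnn1g. In the distal colon and rectum it carries electrogenic sodium absorption, and the adrenal hormone aldosterone raises its activity by way of the mineralocorticoid receptor. The channel is also controlled by proteases that cleave its subunits and by a ubiquitin ligase that removes it from the membrane.

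Several features of the libraries touch the results. Total counts ran from 18.4 to 34.97 megacounts (M) per mouse, and every 0% mouse was sequenced more deeply than every mouse on RPS, with 32.8 ± 1.35 M (SD, n = 5) at 0% and 24.3 ± 3.42 M at 10% RPS. All 10 markers of columnar colon epithelium were detected in each mouse, with summed levels of 11444 to 18961 CPM, whereas 13 markers of squamous epithelium, the lining of the anal canal, summed to 14.9 to 29.3 CPM, with Krt4, Trp63, Krtdap and Calml3 at 0 in at least 1 mouse. For RS10_717, RS10_725 and RS10_748 the submitters gave 2 RPS levels that disagree. The description label, used here, places them at 5, 10 and 2%, and the treatment label at 2, 5 and 10%. With the description label, DESeq2 at 10 against 0% RPS gave adjusted p = 0.00313 for Scnn1b and 0.0173 for Scnn1g. These are the adjusted p-values that the study reports for both genes in DC. The library of RS10_721 (5% RPS) stood apart: the summed level of 9 exocrine pancreas markers was 5816 CPM there and 377 to 849 CPM in the other mice, Pnlip, the pancreatic lipase gene, was at 1108 CPM, and the summed level of 6 posterior Hox genes was lowest there, at 535 CPM. RS10_784 (10% RPS) held Pnlip at 90.7 CPM, against at most 2.66 CPM in the other 18 mice, a difference that the pancreatic sum does not show because Cela1 alone measured 366 CPM or more in each mouse.

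The beta and gamma subunits fell with the amount of RPS in the diet, while the alpha subunit did not follow them. Scnn1b averaged 39.2 ± 12.5 CPM at 0%, 25.9 ± 5.41 at 2%, 19.3 ± 9.53 at 5% and 13.6 ± 5.77 at 10% RPS (SD, n = 5 each). Scnn1g averaged 43.7 ± 19.2, 29.3 ± 6.91, 16.6 ± 10.2 and 10.3 ± 8.31 CPM in the same order. Scnn1a, the most abundant of the 3 per kilobase of exon, averaged 186 ± 25.0, 179 ± 18.9, 213 ± 19.1 and 196 ± 26.9 CPM. In bulk tissue, fewer cells that express a gene and less RNA per cell cannot be told apart.

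**Figure D1:**
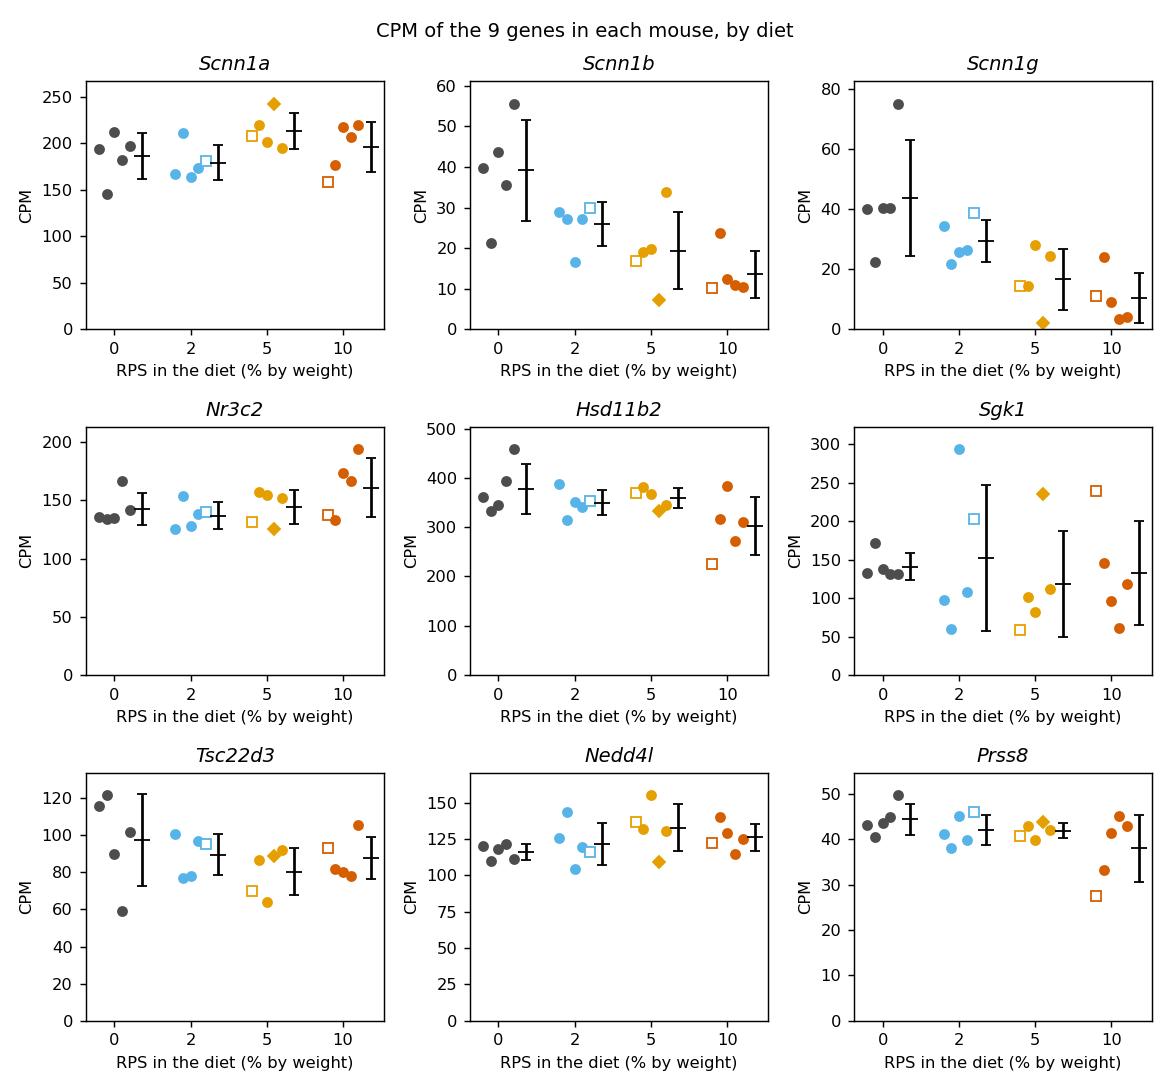
CPM of each of the 9 genes (vertical axis, from 0) in each of 20 mice, by RPS content of the diet in percent by weight, with a bar for the mean ± SD of 5 mice; open squares are the 3 mice whose labels disagree and the diamond is RS10_721. Scnn1b and Scnn1g step down from 0 to 10% RPS, from means of 39.2 and 43.7 CPM to 13.6 and 10.3 CPM, while Scnn1a stays between 146 and 243 CPM.

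Scnn1g (ENSMUSG00000000216) and Scnn1b (ENSMUSG00000030873) are neighbours on the forward strand of mouse chromosome 7. In GRCm39, Scnn1g spans 121333545 to 121367755 and Scnn1b spans 121463946 to 121517737, so 96.2 kb separate the end of the first from the start of the second. Scnn1a (ENSMUSG00000030340) lies on chromosome 6, from 125297622 to 125321906. The annotation places the reverse-strand gene Cog7 over part of Scnn1b and the long non-coding gene Gm66744 over part of Scnn1a, and the strand setting of the authors' counting is not given in the sources used here, so reads in the shared parts are of uncertain origin. No other annotated gene overlaps Scnn1g.

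As the pair that moved together, Scnn1g and Scnn1b are shown with the 250 bases before their start sites, from the RefSeq promoter table, which uses the older assembly GRCm38.p6. The windows lie on the forward strand at chr7:121734229-121734478 for Scnn1g and chr7:121864788-121865037 for Scnn1b.
Scnn1g: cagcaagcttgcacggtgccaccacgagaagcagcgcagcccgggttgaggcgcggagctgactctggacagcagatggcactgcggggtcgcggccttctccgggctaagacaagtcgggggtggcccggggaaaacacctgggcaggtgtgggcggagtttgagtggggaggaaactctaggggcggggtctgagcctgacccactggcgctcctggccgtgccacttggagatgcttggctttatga
Scnn1b: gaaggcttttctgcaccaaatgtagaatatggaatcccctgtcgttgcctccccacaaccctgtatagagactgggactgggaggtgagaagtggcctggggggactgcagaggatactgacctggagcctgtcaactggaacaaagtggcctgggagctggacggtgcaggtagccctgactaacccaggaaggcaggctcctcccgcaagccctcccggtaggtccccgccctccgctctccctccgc
Both windows are GC-rich when 50 bases after the start are included, at 64.7% and 61.7%. Neither window holds AGAACA or TGTTCT, the hexamer that makes up each arm of the element bound by corticosteroid receptors, searched on both strands. These letters stand in 18.97% of the 32851 windows of the table, and their absence says nothing of binding elsewhere.

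In single mice, Scnn1b at 0% RPS measured 39.7 (RS10_701), 21.2 (RS10_703), 43.8 (RS10_704), 35.5 (RS10_707) and 55.6 CPM (RS10_708). At 10% RPS it measured 10.2 (RS10_725), 23.8 (RS10_727), 12.4 (RS10_729), 10.9 (RS10_731) and 10.5 CPM (RS10_784). Thus 4 of the 5 mice on 10% RPS lay below every 0% mouse, and RS10_727 alone lay above the lowest of them. The 2% mice measured 28.8, 27.2, 16.4, 27.2 and 29.9 CPM, and the 5% mice 16.8, 19.1, 19.7, 7.30 and 33.9 CPM. The lowest value of the 20, 7.30 CPM or 203 counts, belonged to RS10_721.

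Scnn1g ranged more widely, with 39.5-fold between the highest and the lowest mouse against 7.63-fold for Scnn1b and 1.67-fold for Scnn1a. It measured 40.0, 22.4, 40.4, 40.3 and 75.2 CPM at 0% RPS and 11.0, 24.0, 9.002, 3.53 and 4.04 CPM at 10% RPS, listing mice in the same order. The same 4 mice on 10% RPS lay below every 0% mouse. At 2% RPS the levels were 34.2, 21.7, 25.6, 26.5 and 38.7 CPM, and at 5% RPS 14.3, 14.4, 27.9, 1.90 and 24.5 CPM. The mouse with 1.90 CPM, or 53 counts, was again RS10_721.

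Differences between diets were tested with the quasi-likelihood test of edgeR over all 17893 genes. Calls required a Benjamini-Hochberg adjusted p at or below 0.05 and a change of 1.5-fold or more. In the linear trend over RPS percent, which has no fold threshold, 2 of the 9 genes were called, both falling, where edgeR called 2.10% of all genes and 0.950% of all genes as falling. Scnn1b fell by 0.147 ± 0.0312 (SE) on the log2 scale per 1% RPS (adjusted p = 0.0241), which is 2.77-fold over the whole range. Scnn1g fell by 0.209 ± 0.0514 per 1% RPS (adjusted p = 0.0410), or 4.27-fold over the range. DESeq2 called the same pair, with adjusted p = 0.000864 and 0.00393, where it called 2.38% of all genes as falling. Both calls were lost under the treatment label (edgeR adjusted p = 0.257 for Scnn1b and 0.334 for Scnn1g) and without the 3 mice whose labels disagree (0.0837 and 0.107). Without those mice the slopes were -0.138 and -0.209, while under the treatment label they were -0.105 and -0.136, the latter smaller by more than 1.5 times. Without RS10_708, RS10_729, RS10_731 or RS10_784 the Scnn1b call was lost, and the Scnn1g call was lost in 13 of the 20 fits that left out a single mouse. Without RS10_784 alone the adjusted p was 0.0791 for Scnn1b and 0.113 for Scnn1g. Without RS10_721 and RS10_784, the libraries with pancreatic transcripts, the slopes were -0.137 (adjusted p = 0.0491 in edgeR) and -0.186 (0.0552), so that only the Scnn1b call held.

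At 10 against 0% RPS, edgeR called 0 of the 9 genes and 0.0391% of all genes. An unadjusted p under 0.05 was found for 4 of the 9. Over all 17893 genes it was found for 1310 that were higher and 1408 that were lower. Such counts are a description here and in the comparisons below, where no share over all genes is given for them. Scnn1b was 2.90-fold lower, a log2 fold change of -1.54 ± 0.34 (SE, adjusted p = 0.0781) with an approximate 95% interval of -2.21 to -0.87. Scnn1g was 4.28-fold lower, a log2 fold change of -2.10 ± 0.57 (adjusted p = 0.110) with an interval of -3.22 to -0.97. Under DESeq2 both were called (adjusted p = 0.00313 and 0.0173), while it called 0.426% of all genes as lower, and limma-voom called 0 of the 9. Without RS10_721, Scnn1b passed in edgeR as well (adjusted p = 0.0439), and without RS10_727 both did, with log2 fold changes of -1.82 and -2.65 (adjusted p = 0.0192 and 0.0344). Without RS10_703, the 0% mouse with the lowest levels, Scnn1b passed (adjusted p = 0.0332). Without both libraries with pancreatic transcripts the log2 fold changes were -1.46 and -1.89, and neither passed (edgeR adjusted p = 0.130 and 0.152).

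The lower RPS levels share the 0% mice with this comparison and are given beside it. At 5 against 0% RPS the log2 fold change was -1.02 ± 0.33 for Scnn1b (adjusted p = 0.369) and -1.40 ± 0.55 for Scnn1g (adjusted p = 0.474). At 2 against 0% RPS it was -0.60 ± 0.33 and -0.57 ± 0.54, with adjusted p-values of 0.9997 in edgeR. Neither level gave a call in edgeR among the 9 genes, nor among all genes (0% of them at 5 and at 2% RPS), nor in DESeq2 or limma-voom among the 9, and 3 of the 9 at 5% and 0 at 2% RPS had an unadjusted p under 0.05.

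Between RPS levels, 10 against 2% RPS gave 0 calls among the 9 genes where edgeR called 0.0224% of all genes, with -0.94 ± 0.34 for Scnn1b (adjusted p = 0.276) and -1.52 ± 0.57 for Scnn1g (adjusted p = 0.293). At 10 against 5% and 5 against 2% RPS, edgeR called 0 of the 9 genes and 0% of all genes. There Scnn1b differed by -0.52 ± 0.34 and -0.42 ± 0.33, and Scnn1g by -0.70 ± 0.57 and -0.82 ± 0.55, each less than 2 SE from 0. In these 3 comparisons 3, 1 and 1 of the 9 genes had an unadjusted p under 0.05, and DESeq2 and limma-voom made 0 calls among the 9. A test for any difference among the 4 diets called 0 of the 9 genes in edgeR, with 3 at an unadjusted p under 0.05, where 0.0727% of all genes were called. DESeq2 called 1 of the 9 in it, Scnn1b (adjusted p = 0.0113), and 2.09% of all genes.

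**Figure D2:**
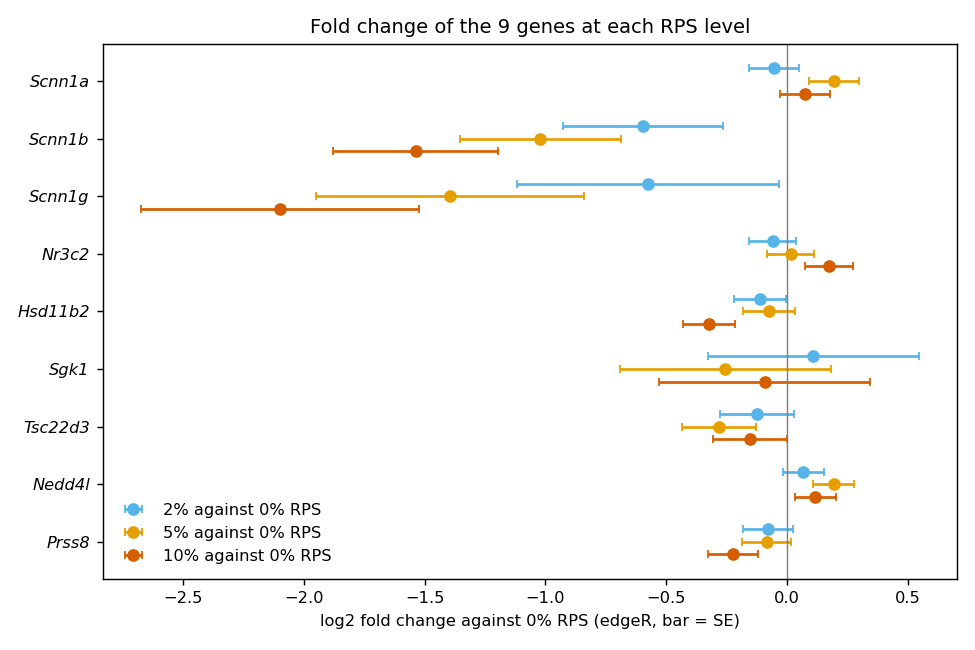
Log2 fold change of each of the 9 genes at 2, 5 and 10% RPS against 0% RPS (horizontal axis), with bars of 1 SE from edgeR. At 10% RPS the points for Scnn1b and Scnn1g stand at -1.54 and -2.10, while the other 7 lie between -0.32 and 0.17.

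Scnn1a did not show this pattern. Its levels were 194, 146, 212, 182 and 197 CPM in the 0% mice and 159, 177, 218, 207 and 220 CPM in the 10% mice, so the groups overlapped almost fully. Its log2 fold change at 10% RPS was 0.07 ± 0.10 (adjusted p = 0.791), with an approximate 95% interval of -0.13 to 0.28. RS10_721, lowest of all mice for the other subunits, was highest for Scnn1a at 243 CPM. At 5 against 2% RPS Scnn1a was higher by 0.25 ± 0.10 on the log2 scale at an unadjusted edgeR p of 0.0243 and an adjusted p of 0.746.

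The balance of the subunits within each mouse was therefore compared as log2 ratios of counts per kilobase of exon, with 2 added to each count. The ratios use the same counts as the tests above, and the study had already reported lower Scnn1b and Scnn1g. The p-values of the ratios are therefore not separate evidence of that fall. The ratio of Scnn1b to Scnn1a averaged -1.82 ± 0.34 at 0%, -2.33 ± 0.32 at 2%, -3.12 ± 0.91 at 5% and -3.43 ± 0.59 at 10% RPS (SD, n = 5). At 10% RPS its difference from 0% was -1.61, with all 5 mice below all 5 control mice (exact two-sided permutation p = 0.00794, the smallest that 5 against 5 mice can give; adjusted p = 0.0238 over the 9 ratio comparisons). The difference was -1.31 at 5% RPS (exact permutation, adjusted p = 0.0357) and -0.51 at 2% RPS (adjusted p = 0.0714). With each mouse left out in turn, the adjusted p at 5% RPS ran from 0.0286 to 0.0714.

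The ratio of Scnn1g to Scnn1a moved further. It averaged -1.82 ± 0.49, -2.27 ± 0.42, -3.74 ± 1.66 and -4.21 ± 1.26 at 0, 2, 5 and 10% RPS. At both 5 and 10% RPS all 5 mice lay below all 5 control mice, by -1.92 and -2.39 on the log2 scale (exact permutation p = 0.00794 and adjusted p = 0.0238 for each), and at 2% RPS the difference was -0.45 (adjusted p = 0.205). Over all genes, the CPM of all 10% mice lay below that of all 0% mice for 1.15% of them, and for none of the 9 genes taken singly. That share is of single genes, and none was computed for ratios between genes. The ratio of Scnn1g to Scnn1b was -0.00 ± 0.21 at 0% and -0.78 ± 0.79 at 10% RPS, a difference that did not pass (exact permutation p = 0.0794, adjusted p = 0.119). Under the treatment label the difference in the Scnn1g to Scnn1a ratio at 10% RPS was -2.07 (exact permutation, adjusted p = 0.0571), and without the 3 mice whose labels disagree the difference in the Scnn1b to Scnn1a ratio at 5% RPS was -1.30 (adjusted p = 0.0714).

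**Figure D3:**
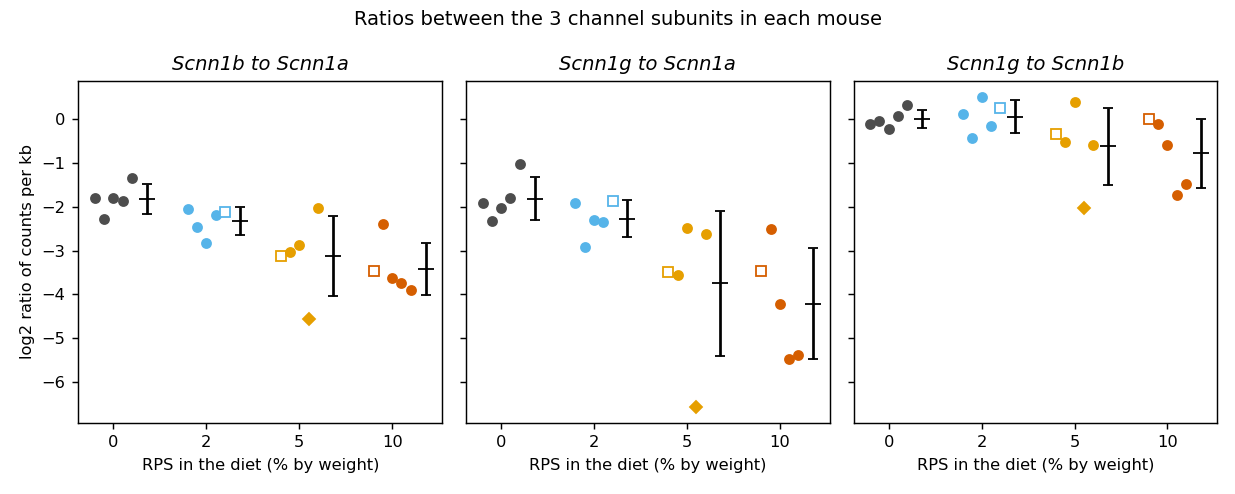
Log2 ratio of counts per kilobase of exon between pairs of ENaC subunits in each mouse, by RPS content of the diet, with a bar for the mean ± SD of 5 mice; open squares are the 3 mice whose labels disagree and the diamond is RS10_721. The ratios to Scnn1a fall from -1.82 at 0% RPS to -3.43 (Scnn1b) and -4.21 (Scnn1g) at 10% RPS, and RS10_721 has the lowest ratio of Scnn1g to Scnn1a, at -6.58.

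Divided by the exon length of each gene, the 3 subunits summed to 72.0 ± 14.9 CPM per kilobase at 0% and 55.3 ± 5.82 at 10% RPS. Scnn1a made up 63.6 ± 6.64% of this sum at 0%, 70.8 ± 4.49% at 2%, 81.6 ± 9.03% at 5% and 85.9 ± 7.53% at 10% RPS. Scnn1b went from 18.1 ± 2.34% to 8.28 ± 3.14% and Scnn1g from 18.3 ± 4.59% to 5.87 ± 4.52% between 0 and 10% RPS. In RS10_721, Scnn1a held 95.04% of the sum. The shares are a description of transcript levels per length and carry no test.

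Neither gene that receives the aldosterone signal passed a test after adjustment. Nr3c2 (ENSMUSG00000031618, chromosome 8, 77625576 to 77971863) encodes the mineralocorticoid receptor and Hsd11b2 (ENSMUSG00000031891, chromosome 8, 106245369 to 106250620) the enzyme that inactivates glucocorticoids so that aldosterone can occupy it. Nr3c2 averaged 143 ± 13.7, 137 ± 11.4, 144 ± 14.7 and 161 ± 25.3 CPM at 0, 2, 5 and 10% RPS. Its log2 fold change at 10% RPS was 0.17 ± 0.10 (adjusted p = 0.409), with an interval of -0.02 to 0.37, and its trend of 0.0200 per 1% RPS did not pass (edgeR adjusted p = 0.219).

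Hsd11b2 had the highest level of the 9 genes per kilobase, at a mean of 187 CPM per kilobase over the 20 mice. It measured 361, 333, 344, 395 and 458 CPM in the 0% mice and 226, 317, 384, 272 and 311 CPM in the 10% mice. The groups overlapped, since 4 of the 5 mice on 10% RPS lay below the lowest 0% mouse and RS10_729 lay within the 0% range. The log2 fold change of -0.32 ± 0.11 had an unadjusted p of 0.00688 and an adjusted p of 0.162 in edgeR (0.109 in DESeq2), with an interval of -0.54 to -0.11, and the trend of -0.0294 per 1% RPS missed the threshold too (adjusted p = 0.115).

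Sgk1 and Tsc22d3 are genes that aldosterone and glucocorticoids induce. Sgk1 (ENSMUSG00000019970, chromosome 10, 21758083 to 21875802) encodes a kinase that protects ENaC from ubiquitylation, and Tsc22d3 (ENSMUSG00000031431, chromosome X, 139440091 to 139501408, reverse strand) encodes GILZ, a leucine zipper protein that raises ENaC activity. The window before the Sgk1 start site at chr10:21993640-21993889 (GRCm38.p6, forward strand) is shown because it alone among the windows of these genes holds 2 hexamers as a palindrome, AGAACA and TGTTCT with 3 bases between them.
Sgk1: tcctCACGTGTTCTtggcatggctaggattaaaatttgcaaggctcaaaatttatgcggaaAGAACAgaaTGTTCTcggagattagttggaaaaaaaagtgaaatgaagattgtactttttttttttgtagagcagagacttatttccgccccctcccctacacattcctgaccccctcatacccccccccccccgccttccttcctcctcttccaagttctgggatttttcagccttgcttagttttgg
Capitals mark the hexamers, which begin at positions -242, -189 and -180 where the base just before the start is -1, and the E-box CACGTG, a clock factor motif, which begins at -246 and overlaps the first of them. The palindrome, at -189, stands in 3 (0.00913%) of the 32851 windows and the E-box in 7.15%. Of 12 windows for 5 of the 9 genes, 4 hold a hexamer, 3 of Sgk1 and 1 of Tsc22d3. A match of letters is a description and not a binding site.

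Neither gene passed a test between diets, and Sgk1 varied widely between mice that ate RPS. At 0% RPS Sgk1 measured 133, 172, 138, 131 and 132 CPM, a coefficient of variation of 12.3%. At 2% RPS it measured 97.2, 59.7, 293, 107 and 203 CPM, and the coefficient of variation was 62.5%, 58.2% and 51.2% at 2, 5 and 10% RPS. The difference in spread was not tested. The log2 fold change at 10% RPS was -0.09 ± 0.44 (adjusted p = 0.945), with an interval of -0.95 to 0.76, the widest of the 9 after that of Scnn1g. Tsc22d3 averaged 97.5 ± 24.7 CPM at 0% and 87.7 ± 11.5 CPM at 10% RPS, a log2 fold change of -0.15 ± 0.15 (adjusted p = 0.686) with an interval of -0.45 to 0.15.

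Nedd4l and Prss8 act on the channel protein. Nedd4l (ENSMUSG00000024589, chromosome 18, 65020724 to 65350899) encodes the ubiquitin ligase that marks ENaC for removal, and was the least variable of the 9 genes over the 20 mice, with a coefficient of variation of 10.3%. It averaged 116 ± 5.36 CPM at 0%, 133 ± 16.3 at 5% and 126 ± 9.40 at 10% RPS. The log2 fold change was 0.19 ± 0.09 at 5% RPS (unadjusted p = 0.0352, edgeR adjusted p = 0.511) and 0.12 ± 0.09 at 10% RPS (adjusted p = 0.545).

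Prss8 (ENSMUSG00000030800, chromosome 7, 127524888 to 127529294, reverse strand) encodes prostasin, a membrane-bound protease that activates ENaC. It averaged 44.4 ± 3.38 CPM at 0% and 38.0 ± 7.42 CPM at 10% RPS, where RS10_725 and RS10_727 were low at 27.5 and 33.2 CPM and the other mice lay between 41.3 and 45.2 CPM. The log2 fold change of -0.22 ± 0.10 had an unadjusted p of 0.0400 and an adjusted p of 0.308. Prss8 overlaps Kat8 on the opposite strand, so its counts carry the same uncertainty as those of Scnn1b. Other annotated genes also overlap Nr3c2, Sgk1, Nedd4l and Tsc22d3. Among them are Gm53027, a pseudogene on the strand of Tsc22d3, and Gm23260 on that of Nr3c2. Over the 9 genes the median log2 fold change at 10% RPS was -0.15, beside -0.015 over all genes tested.

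Whether the genes varied together from mouse to mouse was examined over all 36 pairs of log2 CPM in the 20 mice, with 100000 permutations. Scnn1b and Scnn1g had the closest relation, with Pearson r = 0.915 and Spearman rho = 0.907 (permutation p = 1e-05 for each, the smallest these permutations can give; adjusted p = 0.00036). Without RS10_708 and RS10_721, the mice farthest from the median of Scnn1b, r was 0.873, and after the mean of each diet was subtracted it was 0.835. Scnn1a had r = -0.228 to Scnn1b and -0.469 to Scnn1g (permutation, adjusted p = 0.213 for the latter). Sgk1 and Nedd4l ran against each other, with r = -0.626 and rho = -0.629 (permutation, adjusted p = 0.0391 and 0.0438), r = -0.602 within diets and r = -0.510 without the 2 farthest mice. The relation of Hsd11b2 to Prss8 (r = 0.690, permutation, adjusted p = 0.0391) rested on RS10_708 and RS10_725, since r was 0.143 without them and rho was 0.335 (adjusted p = 0.445). Nedd4l and Prss8 passed by rank only, with rho = -0.653 (permutation, adjusted p = 0.0421) and r = -0.403 (adjusted p = 0.262).

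**Figure D4:**
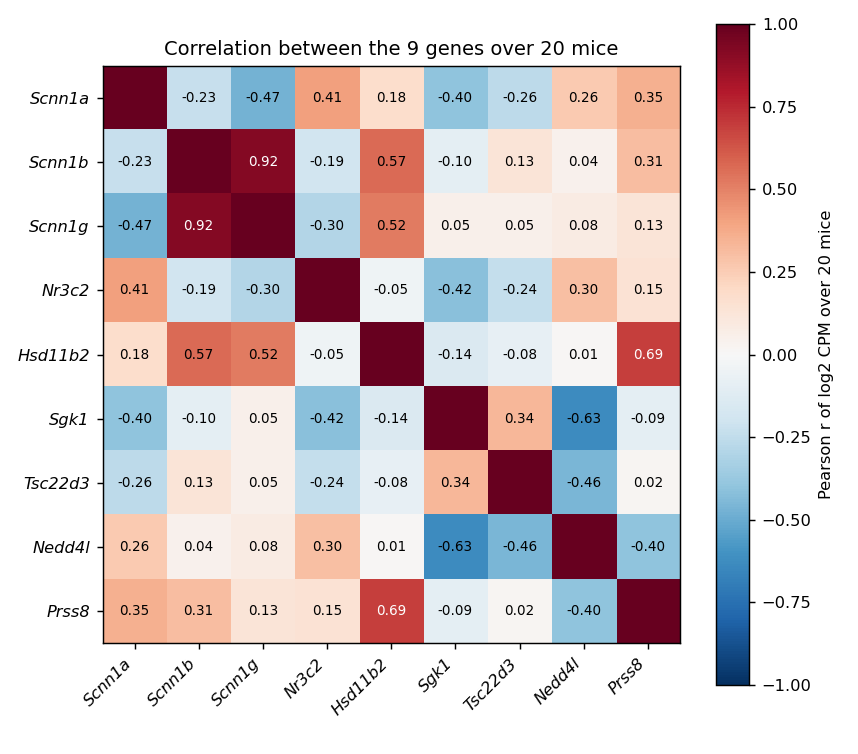
Pearson correlation of log2 CPM between each pair of the 9 genes over 20 mice, in a color scale from -1 to 1. Scnn1b and Scnn1g form the most positive pair, at 0.915, and Sgk1 with Nedd4l the most negative, at -0.626.

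The levels of other tissue components moved with Scnn1b and Scnn1g, and some of them with Scnn1a. The part of these components in the result was not tested. The 6 posterior Hox genes measured (Hoxa13, Hoxb13, Hoxd10, Hoxd11, Hoxd12 and Hoxd13), which mark position along the gut axis, summed to 836 ± 86.0 CPM (745 to 977) at 0%, 804 ± 51.5 (736 to 867) at 2%, 704.3 ± 117 (535 to 858) at 5% and 698 ± 43.0 (651 to 749) at 10% RPS. None of them was at 0 in any mouse. At 10% RPS 6 of 6 had a log2 fold change below 0, from -0.019 (Hoxd12) to -0.44 (Hoxd11). Of the 17893 genes tested, 9514 lay below 0. Only 1, Hoxb13, was called in the falling trend (edgeR adjusted p = 0.0425, 0.104 without the 3 mice whose labels disagree and 0.120 without RS10_721 and RS10_784), where edgeR called 0.950% of all genes as falling. Over the 20 mice the log2 of their sum was related to Scnn1b with r = 0.879 and rho = 0.851 (permutation, adjusted p = 0.00012 and 0.00024), r = 0.815 without the 2 farthest mice and r = 0.840 within diets. For Scnn1g the values were r = 0.824 and rho = 0.729 (adjusted p = 0.00018 and 0.00331), 0.833 without the 2 farthest mice, 0.707 within diets and 0.730 without RS10_721. Hoxb13 carried most of the sum, at 520 ± 54.7 CPM at 0% and 414 ± 25.2 CPM at 10% RPS. Taken singly, r with Scnn1b was 0.835 for Hoxb13, 0.792 for Hoxd11, 0.712 for Hoxd10, 0.518 for Hoxd13, 0.513 for Hoxd12 and 0.169 for Hoxa13. With Scnn1g r ran from 0.159 (Hoxa13) to 0.864 (Hoxd11), with Hoxb13 at 0.670. In RS10_721 the Hoxd genes were low (Hoxd13 at 54.8 CPM), while Hoxb13, at 413 CPM, lay within the range of the other mice.

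Of 9 markers of surface colonocytes, the absorptive cells at the mouth of the crypt, 4 (Car4, Aqp8, Slc26a3 and Krt20) were called in the rising trend, where edgeR called 1.15% of all genes as rising. Car4 and Slc26a3 also passed without the 3 mice whose labels disagree and without RS10_721 and RS10_784, and Aqp8 and Krt20 passed in neither fit. The 9 summed to 5996 ± 683 CPM (5299 to 7016) at 0% and 8348 ± 573 CPM (7478 to 8853) at 10% RPS, and to 5991 ± 548 CPM (5271 to 6737) at 2% and 7232 ± 634 CPM (6322 to 8092) at 5%. This sum, on the log2 scale, ran against Scnn1b (r = -0.708, rho = -0.660, permutation, adjusted p = 0.00211 and 0.00926), with r = -0.660 without the 2 farthest mice and r = -0.297 within diets. Against Scnn1g it had r = -0.760 and rho = -0.690 (adjusted p = 0.00054 and 0.0060), with r = -0.733 without the 2 farthest mice and r = -0.452 within diets. Of 7 leukocyte markers 0 were called in the trend by edgeR and 5 lay above 0 at 10% RPS, and their sums spanned 103 to 718.3 CPM at 0%, 204 to 564 at 2%, 218 to 463 at 5% and 375 to 800 CPM at 10% RPS. Jchain, a gene of plasma cells, carried most of the sum, at 211 ± 232 CPM at 0% and 451 ± 168 CPM at 10% RPS, whereas Cd3e of T cells and Adgre1 of macrophages had log2 fold changes of -0.34 and -0.40, and none of these passed. With Scnn1b they had r = -0.794 and rho = -0.803 (permutation, adjusted p = 0.000216 and 0.00072), r = -0.829 without the 2 farthest mice and r = -0.667 within diets. With Scnn1g they had r = -0.563 and rho = -0.639 (adjusted p = 0.0271 and 0.0135), r = -0.636 without the 2 farthest mice and r = -0.275 within diets. No surface or leukocyte marker was at 0 in any mouse. All 10 markers of columnar epithelium lay above 0 at 10% RPS, beside 8379 of all 17893 genes. Krt20, counted above, and Cdh17 were called in the rising trend. Cdh17 (edgeR adjusted p = 0.0276) did not pass without the 3 mice whose labels disagree (0.0590) or without RS10_721 and RS10_784 (0.0656). The 10 summed to 13689 ± 1812 CPM at 0% and 15631 ± 1617 CPM at 10% RPS. They ran against both subunits by r only, at -0.570 for Scnn1b and -0.723 for Scnn1g (permutation, adjusted p = 0.0256 and 0.00206), with rho of -0.392 and -0.483 (adjusted p = 0.157 and 0.0796). Within diets r was -0.342 and -0.591. Clock genes had r = 0.542 and rho = 0.543 with Scnn1b (permutation, adjusted p = 0.0376 and 0.0494), 0.536 within diets and 0.416 without the 2 farthest mice. With Scnn1g their r was 0.355 (adjusted p = 0.163). Scnn1a rose with columnar epithelium (r = 0.606, rho = 0.579, permutation, adjusted p = 0.0194 and 0.0354), with r = 0.524 within diets and 0.437 without the 2 farthest mice. With surface colonocytes it had r = 0.577 and rho = 0.549 (adjusted p = 0.0256 and 0.0486), 0.694 within diets and 0.445 without the 2 farthest mice. By r only, squamous epithelium ran with Scnn1a (0.519, permutation, adjusted p = 0.0435) and against Scnn1g (-0.572, adjusted p = 0.0256). Fibroblast markers ran against Scnn1a, also by r only (-0.520, permutation, adjusted p = 0.0435). These p-values were adjusted over 36 pairs, the 3 subunits with 12 levels, Slc9a3 and the marker lists among them.

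The wider pathway was examined in 7 lists with 63 tested genes, of which edgeR called 0 at 10 against 0% RPS and 6 in the trend, 4 rising and 2 falling, beside 2.10% of all genes in the trend. DESeq2 called 3 of the 63 at 10% RPS, where it called 1.25% of all genes. Of the 6 trend calls, Nherf1 and Slc26a3 also passed without the 3 mice whose labels disagree (edgeR adjusted p = 0.0426 and 0.0270), and Slc26a3 alone passed without RS10_721 and RS10_784 (0.0163). Under the treatment label edgeR made 0 trend calls among all genes, so each trend call of a pathway or marker gene was lost there. The median log2 fold change of the 63 was -0.019, beside -0.015 for all genes. Among 7 proteases and inhibitors that act on the channel, 1 rose in the trend: St14, the membrane protease matriptase that activates prostasin, from 324 ± 25.6 CPM at 0% to 401 ± 47.7 CPM at 10% RPS (edgeR adjusted p = 0.0390). The median of the 7 was 0.18. Among 14 kinases and ubiquitin regulators 0 were called by edgeR and 1 by DESeq2, with a median of 0.08. An unadjusted edgeR p under 0.05 was found for 2 that were higher, beside 1310 higher among all 17893 genes. The 2 with the smallest p were Sgk2, a relative of Sgk1, at 0.80 ± 0.24 on the log2 scale (edgeR adjusted p = 0.124, DESeq2 adjusted p = 0.0206), and Pdpk1, the kinase that activates both, at 0.22 (edgeR adjusted p = 0.222).

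Of 13 genes of the sodium pump and partner channels, which carry sodium out of the cell and balance its charge, 0 were called by edgeR or DESeq2. Their median was -0.037. An unadjusted edgeR p under 0.05 was found for 1 that was lower, beside 1408 lower among all 17893 genes. That gene was Fxyd4, the pump regulator CHIF, at 126 ± 59.4 CPM at 0% and 58.1 ± 35.6 CPM at 10% RPS (adjusted p = 0.251), and the next was the potassium channel gene Kcnk5 at -0.20 (adjusted p = 0.594). Of 13 further genes that respond to corticosteroids, 9 lay below 0, the median was -0.092, and 1 fell in the trend: Ndrg2, which aldosterone induces, from 372 ± 48.9 to 282 ± 50.2 CPM (edgeR adjusted p = 0.0372). Of 5 tested genes of corticosteroid synthesis, with a median of -0.17, 1 fell in the trend: Cyp11a1, the enzyme that makes pregnenolone from cholesterol, which measured 4.79 ± 4.50 CPM at 0% and 0.370 ± 0.214 CPM at 10% RPS (edgeR adjusted p = 0.0190). Cyp11b1, Cyp11b2 and Nr5a1 were not analysed here. The 4 tested acid-sensing channels, relatives of ENaC, all lay below 0 with a median of -0.20 and 0 calls by edgeR or DESeq2, and the smallest unadjusted p-values were 0.314 for Asic2 and 0.382 for Asic4.

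Genes of electroneutral sodium absorption, the exchange of sodium for protons coupled to that of chloride for bicarbonate, were mixed. Of 7 tested, 3 rose in the trend and none was called as falling, beside 1.15% of all genes called as rising. The median log2 fold change at 10% RPS was 0.32, with Slc9a2 at 0.32 and Slc4a2 at 0.14, which did not pass in edgeR, and Pdzk1 and Slc26a6 at -0.079 and -0.018. Slc9a3, the sodium-proton exchanger NHE3, measured 8.23 ± 7.61 CPM at 0%, 13.3 ± 4.50 at 2%, 77.1 ± 66.9 at 5% and 90.9 ± 50.4 at 10% RPS (edgeR adjusted p = 0.0372 in the trend and 0.0821 at 10%). Nherf1, its scaffold protein, rose by 0.50 at 10% RPS on the log2 scale (trend adjusted p = 0.0239). Slc26a3, the chloride-bicarbonate exchanger, went from 1102 ± 157 to 1633 ± 119 CPM (trend adjusted p = 0.00423). This gene is also counted among the surface colonocyte markers above. Over the 20 mice Slc9a3 ran against Scnn1b (r = -0.888, rho = -0.892, permutation, adjusted p = 0.00012 and 0.00018) and against Scnn1g (r = -0.839, rho = -0.836), with r = -0.741 and -0.651 within diets and -0.841 and -0.861 without the 2 farthest mice.

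**Figure D5:**
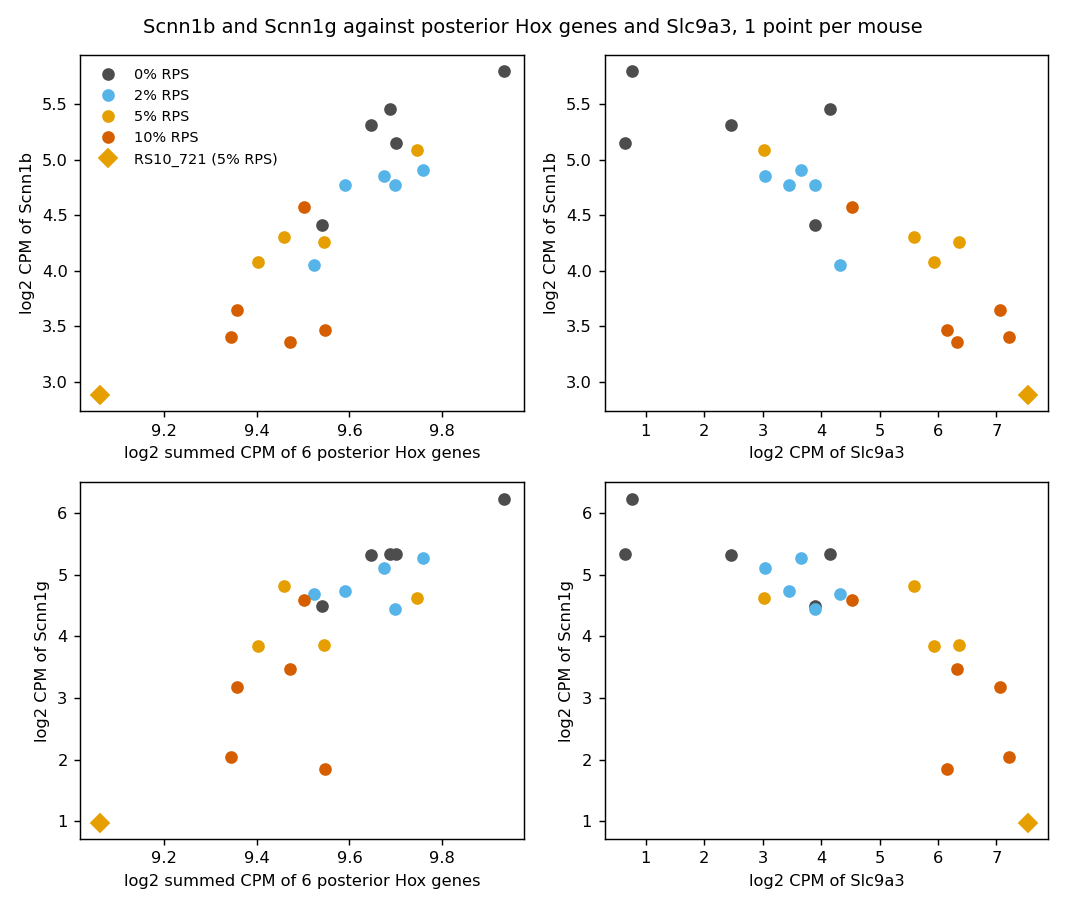
Log2 CPM of Scnn1b and of Scnn1g (vertical axes) in 20 mice against the log2 summed CPM of 6 posterior Hox genes and against the log2 CPM of Slc9a3, colored by RPS content of the diet. Both subunits rise with the Hox level (r = 0.879 and 0.824) and fall with Slc9a3 (r = -0.888 and -0.839), and RS10_721 lies at the low end of the Hox level.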

How the data were processed

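Polyadenylated RNA of the DC of 20 mice was sequenced by the authors as stranded single-end libraries. The reads were quality-trimmed and mapped to GRCm39 in CLC Genomics Workbench, and the raw read counts per gene were deposited without normalization or pooling. The annotation release and the strand setting of the counting are not given in the sources used here. Groups came from the description label (n = 5 mice per diet), and mouse numbers are unique to an animal.

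Of 26619 identifiers, 26338 were matched to GENCODE vM39, which gave symbols, positions and exon lengths. Counts were filtered with filterByExpr of edgeR 4.0.16 (minimum count 10), which kept 17893 genes, scaled by TMM and tested with the quasi-likelihood F-test (robust) in R 4.3.3 in 1 fit over the 4 diets, with Benjamini-Hochberg adjustment over all tested genes. Approximate 95% intervals are 1.96 SE on either side of the estimate. Log2 CPM used a prior count of 2. DESeq2 1.42.0, limma-voom (limma 3.58.1), RLE scaling, no filter on low counts, no robust step, thinning to the smallest library, no fold threshold, fits of 2 diets alone, the treatment label, the omission of the 3 mice whose labels disagree, of RS10_721 and of each mouse in turn were alternatives, and the omission of RS10_721 and RS10_784 together was added after the data were seen. The edgeR procedure was tested on simulated counts. Ratios were compared by exact permutation over 252 splits, and correlations with Python 3.11.15 and scipy 1.17.1. Depth is given as total counts, and intervals cover the spread between these mice only.

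The genes and lists were chosen with earlier results of these data known. All 9 genes were named whatever their values. Of each pathway list (channel proteases and inhibitors, kinase and ubiquitin regulators, sodium pump and partner channels, corticosteroid response, corticosteroid synthesis, electroneutral sodium absorption, acid-sensing channels), genes called at 10 against 0% RPS or in the trend were named, otherwise the 2 with the smallest p. As genes most like Scnn1b or Scnn1g, the 5 with the highest and the 3 with the lowest Pearson r over the 20 mice, at a mean of at least 1 CPM, were named. Marker lists gave the levels of other tissue components. Promoter sequences came from RefSeq (GRCm38.p6), and windows of 300 bases were searched.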

Additional observations from a re-analysis of the deposited data

Results flagged for a closer look

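Of 48 groups of 5 mice examined, being the CPM of each gene and the ratios of the subunits within each diet, 6 held a mouse far from the other 4 by Dixon's criterion at the 95% level. About 1 in 20 groups, or 2.4 here, would be expected to hold such a mouse by chance. In Scnn1b, RS10_715 was low among the 2% mice at 16.4 CPM, with the next at 27.2 CPM. RS10_727 was high in Scnn1b among the 10% mice at 23.8 CPM, with the next at 12.4 CPM, and its log2 ratio of Scnn1b to Scnn1a, taken as counts per kilobase of exon, of -2.40 was high as well, with the next at -3.47. The log2 ratio of Scnn1g to Scnn1a in RS10_721, at -6.58, stood below the next 5% mouse at -3.56, and this library also held the highest level of exocrine pancreas markers (5816 CPM). In the 0% group, RS10_707 was high in Nr3c2 at 167 CPM, with the next at 142 CPM, and RS10_703 was high in Sgk1 at 172 CPM, with the next at 138 CPM.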

How the results depend on the processing

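Of 738 values of single genes under the alternatives other than leaving out each mouse, 3 passed the threshold anew and 6 no longer passed it. None of the called values changed sign, and 16 that were not called did. With each mouse left out, 4 of 1260 values passed anew, 17 no longer passed, and 23 uncalled values changed sign, among them Sgk1 at 10% RPS (-0.42 to 0.09). The number of the 9 genes called at 10 against 0% RPS, 0 in edgeR, was 2 with DESeq2, 1 without RS10_721 and 0 to 2 when each mouse was left out. In the trend, with 2 calls, it was 1 with no filter on low counts, 0 under the treatment label, 0 without the 3 mice whose labels disagree, 1 without RS10_721 and RS10_784 (chosen after the data were seen) and 0 to 2 with each mouse left out. In the test of any difference it was 0 in edgeR and 1 in DESeq2. The difference in the log2 ratio of Scnn1g to Scnn1a at 10% RPS was -2.07 under the treatment label, and that of Scnn1b to Scnn1a at 5% RPS was -1.30 without the 3 mice. With each mouse left out, the ratio of Scnn1b to Scnn1a differed by -0.63 to -0.39 at 2% RPS (exact permutation, adjusted p = 0.0286 to 0.143). At 5% RPS it differed by -1.58 to -0.95 (adjusted p = 0.0286 to 0.0714), and its result stayed the same in 12 of 20 fits. The ratio of Scnn1g to Scnn1b differed by -0.87 to -0.27 at 5% RPS (adjusted p = 0.0357 to 0.347). Without RS10_721, r was -0.636 for Scnn1a with Sgk1 and 0.308 for Scnn1g with Sgk1. With Nr3c2, r without RS10_721 was 0.614 for Scnn1a and -0.593 for Scnn1g, against 0.406 and -0.296 in all 20 mice. In relations with marker levels, an alternative chosen after the data were seen, r without RS10_721 was 0.143, 0.260 and -0.107 for Scnn1a with smooth muscle, exocrine pancreas and posterior Hox genes, 0.296 and 0.308 for Scnn1b with smooth muscle and exocrine pancreas, and -0.609, 0.212, 0.142 and 0.730 for Scnn1g with columnar epithelium, smooth muscle, exocrine pancreas and posterior Hox genes.

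Over all genes, the 7 calls at 10 against 0% RPS became 211 with DESeq2, 13 with RLE scaling, 36 without RS10_721, 12 with no fold threshold, 3 with the 2 diets alone, and 0 under the treatment label or without the 3 mice. The 375 trend calls became 973 with DESeq2, 0 under the treatment label, 56 without the 3 mice and 60 without RS10_721 and RS10_784. The cause of these shifts was not tested. No paired analysis was possible because each mouse number is unique to an animal. Thinned to the smallest library, Scnn1b and Scnn1g kept their trend calls (adjusted p = 0.0225 and 0.0369 in edgeR).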

Other observations

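Among 15232 genes that averaged 1 CPM or more, the levels most like Scnn1b over the 20 mice, by Pearson r of log2 CPM, were those of Slc48a1, a heme transporter (r = 0.921), Scnn1g (0.915), Klk15, a kallikrein-related protease (0.907), Cyp27a1, the sterol 27-hydroxylase (0.901), and Atp7b, a copper-transporting ATPase (0.901). Those most unlike it were Aqp4, a water channel (-0.914), Mgat4c (-0.913) and Tank (-0.910). For Scnn1g the list was led by Scnn1b and Klk15 (0.902), followed by the long non-coding RNA gene Gm44756 (0.893), Dnajc12 (0.893) and Fxyd4 (0.887), and ended with Muc3a, a membrane mucin (-0.927), Ddah1 (-0.927) and Dpep1, a membrane dipeptidase (-0.906). These r carry no test, since the genes were picked from all genes by r and the mice share diet and library.

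Klk15 fell in the trend from 5.43 ± 1.84 CPM at 0% to 1.76 ± 0.744 CPM at 10% RPS (SD, n = 5; edgeR adjusted p = 0.00866). Of the genes most unlike the subunits, Muc3a rose in the trend from 78.4 ± 18.4 to 129.7 ± 29.9 CPM (edgeR adjusted p = 0.0476). Aqp4 averaged 53.8 ± 18.5 CPM at 0% and 164 ± 82.6 CPM at 10% RPS and missed the threshold in edgeR (adjusted p = 0.0687). The trend calls of Klk15 and Muc3a were lost under the treatment label, where edgeR made 0 trend calls. These genes were picked by their r with subunits already called as falling in the same mice. Their trend p-values are therefore a description and not a separate test.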
